A study of Mus musculus with 24 samples.

Results

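Gene expression in the aorta was compared between Ppp3cb knockout (KO) and wildtype (WT) mice that had both received angiotensin II (AngII). The comparison uses the 12 libraries of AngII-treated mice out of 24 in the series: 3 WT females, 3 WT males, 3 KO females and 3 KO males. Libraries were chosen by the genotype, treatment and sex in their labels, and no measured value was used. All mice were 5 months old and came from the B6,129S6-Ppp3cbtm1Jmk stock, in which the KO mice carry the targeted Ppp3cb allele. Implanted osmotic minipumps delivered AngII at 500 ng per kg of body weight per min for 4 weeks; whether the controls were implanted too is not stated in the labels. The series asks what the beta form of the catalytic subunit does in the vascular changes that AngII brings about. The other 12 libraries, from control WT and KO mice of both sexes (3 per group), serve below as separate animals for the same genotype difference. The labels number the libraries within a group without naming the animal behind each, so p-values measure the spread between these libraries. The hour at which aortas were taken is not given in the sources used here.

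Calcineurin is a phosphatase that calcium and calmodulin switch on. It consists of a catalytic A subunit, made as an alpha (Ppp3ca), beta (Ppp3cb) or gamma (Ppp3cc) form, and a regulatory B subunit (Ppp3r1). Active calcineurin removes phosphates from the NFAT transcription factors, which then enter the nucleus. In vascular smooth muscle, AngII raises calcium through its type 1 receptor and so feeds this pathway. Rcan1 is both an inhibitor of calcineurin and a gene that NFAT switches on, and its level is widely used as a readout of calcineurin activity.

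Total RNA depleted of ribosomal RNA was sequenced, and reads were counted per gene. Totals were 3668011 to 4402370 counts in the WT and 2535746 to 6352365 counts in the KO libraries. The contractile myosin Myh11, which defines smooth muscle, stood at 6174 to 7693 CPM (the CPM scale sets read counts relative to the TMM-scaled total of a library) in WT and 4522 to 9010 CPM in KO. Of the 41128 genes listed, 29460 had a count in these libraries and 13678 passed the filter on low counts and were tested. The 1781 olfactory and vomeronasal receptor genes, which are mostly silent outside sensory tissue, held 538.7 to 1344 CPM of protein-coding counts in KO females and 253.5 to 453.4 in WT females. In males they held 279.2 to 626.3 CPM in KO and 140.7 to 258.6 in WT. Within each sex every KO library was therefore above every WT library in this measure. A family of satellite-like genes around Gm10800 followed the same order, at 3.07 to 6.95% of counts in KO females against 1.68 to 2.17% in WT females, and 0.666 to 2.53% against 0.547 to 0.617% in males. The receptor share was also added to the model as a covariate. Because the share separates the genotypes within each sex, that fit cannot tell the share from genotype. Calls lost in that fit therefore do not show the part of either, and the part of these shares was not tested.

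In all, 68 of the 13678 genes (0.497%) passed the test at an adjusted p under 0.05 (edgeR's quasi-likelihood test with sex as a covariate, Benjamini-Hochberg adjustment). Of these, 57 were higher in KO (0.417%) and 11 lower (0.0804%). The genes that fell were led by Rcan1 and by the heat shock genes Hspa1b, Hspa1a and Hsph1. The genes that rose were mostly near-identical copies of 1 chromosome 14 gene family, and beside these the clock genes Hlf, Tef and Per3. Unadjusted p-values lay under 0.05 for 1082 genes (7.91%), and for 113 genes (0.826%) the KO and WT libraries did not overlap. The median difference over all genes was 0.01 log2. With the receptor share as a covariate 6 genes were called, of which 2, Hlf and Tcap, were among the 68, so every other gene called here lost its call in that fit. With adipocyte and skeletal muscle covariates 10 genes were called, and of the called genes named below these included Hspa1b, Hspa1a and the satellite-like Gm21738. The skeletal muscle covariate includes the called gene Tcap. Summed with Tcap, the skeletal muscle markers were at 34.1 to 89.8 CPM in WT and 97.4 to 197 CPM in KO. Calls lost in that fit therefore do not show the part of these tissues, which was not tested.

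Ppp3cb itself (ENSMUSG00000021816, chromosome 14, 20499364 to 20546573, minus strand, mm10) was checked first. It stood at 36.3, 65.0 and 34.5 CPM in WT females and 23.8, 14.8 and 29.0 CPM in KO females. In males it stood at 29.4, 39.7 and 35.8 CPM in WT and 20.3, 18.8 and 19.2 CPM in KO. Every KO library lay below every WT library. The mean in KO was 52.3% of that in WT, a difference of -0.90 log2 CPM (exact permutation test within sex, two-sided, p = 0.005, the smallest that 400 arrangements allow). In the model across all genes the difference was -0.92 ± 0.21 (SE), just outside the threshold (edgeR, adjusted p = 0.0542). The sources used here do not say which exons the allele lacks, and counts per gene cannot separate them from the rest of the transcript.

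The other calcineurin subunits did not pass the test. Ppp3ca stood at 36.4 ± 8.5 CPM in WT and 40.7 ± 7.78 in KO (SD, n = 6 each), a difference of 0.16 ± 0.19 log2 (SE). Ppp3cc stood at 0.05 ± 0.35 and Ppp3r1 at -0.27 ± 0.33. Among the NFAT factors, Nfatc1 differed by -0.03 ± 0.18, Nfatc2 by -0.04 ± 0.38 and Nfatc4 by -0.12 ± 0.25, while Nfatc3 was too low to be tested. Of 15 tested NFAT factors, export kinases and cofactors none was called, and the median was -0.04.

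Rcan1 (ENSMUSG00000022951, chromosome 16, 92391953 to 92470867, minus strand) fell. It stood at 24.03, 50.2 and 42.5 CPM in WT females against 14.98, 10.1 and 7.54 CPM in KO females. In males the values were 30.8, 40.2 and 45.2 CPM in WT and 16.8, 10.3 and 7.55 CPM in KO. All 6 KO libraries were below all 6 WT libraries. The fall was 1.802 on the log2 scale, with an SE of 0.25 (edgeR, adjusted p = 0.00238), and it was -1.83 ± 0.37 in females and -1.77 ± 0.37 in males. Rcan1 was called in each of the 12 fits that left out 1 library. With the receptor share as a covariate the value was -2.35 and was not called (adjusted p = 0.0819), and it was also not called with adipocyte and skeletal muscle covariates.

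Rcan1 was the one called gene among 11 tested inhibitors and anchors of calcineurin and among 15 tested genes reported to respond to calcineurin and NFAT. Its relative Rcan2, an inhibitor that is far more abundant here, stood at 265 ± 52.9 CPM in WT and 310 ± 53.5 in KO (0.22 ± 0.16). Cabin1, which binds and blocks calcineurin, stood at 0.31 ± 0.16. Of the 15 responsive genes 9 were lower and 6 higher, with a median of -0.21. The protease Adamts1 stood at -0.51 ± 0.15, the nuclear receptor Nr4a1 at -0.91 ± 0.38 and the early growth response gene Egr2 at -0.99 ± 0.46, none called (edgeR, adjusted p = 0.208, 0.53 and 0.607).

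RefSeq gives Rcan1 an upstream and an internal start. The internal start is the one tied to calcineurin and NFAT in textbook accounts. The 250 bases before each start are shown for this reason, with matches to the NFAT core GGAAA on either strand in capitals (TTTCC on the strand shown). The window of the internal start (GRCm38, chr16:92400079-92400328, minus strand) holds 3 matches and that of the upstream start (chr16:92466170-92466419, minus strand) none.
Rcan1 internal start: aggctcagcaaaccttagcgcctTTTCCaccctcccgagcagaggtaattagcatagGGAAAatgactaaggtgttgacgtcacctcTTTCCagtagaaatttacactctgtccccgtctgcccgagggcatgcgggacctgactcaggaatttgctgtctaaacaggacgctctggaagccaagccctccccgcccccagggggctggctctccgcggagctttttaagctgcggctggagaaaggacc
Rcan1 upstream start: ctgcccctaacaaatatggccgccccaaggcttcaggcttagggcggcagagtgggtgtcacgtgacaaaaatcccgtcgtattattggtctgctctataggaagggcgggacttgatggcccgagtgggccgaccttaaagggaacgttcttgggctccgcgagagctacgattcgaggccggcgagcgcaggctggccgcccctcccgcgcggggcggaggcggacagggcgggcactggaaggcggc
So short a motif is common: 55.6% of 32807 promoter windows of this length hold at least 1 match. Counts per gene add both transcripts, so which of them fell cannot be read from this table.

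**Figure D1:**
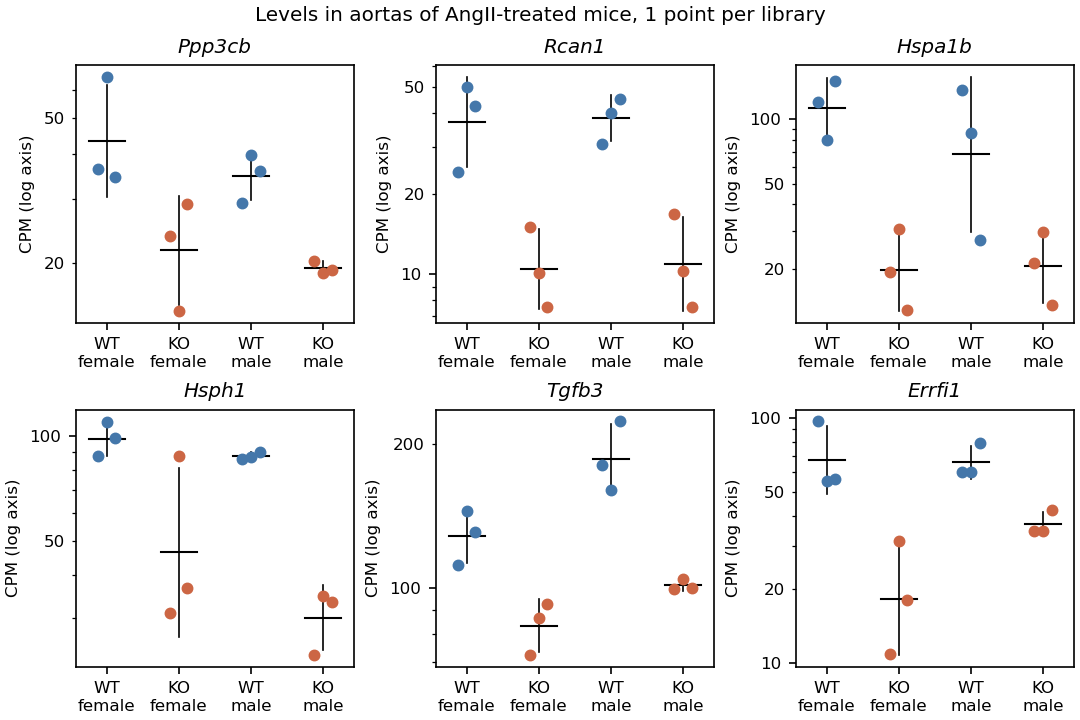
CPM per library on a log axis for Ppp3cb, Rcan1, Hspa1b, Hsph1, Tgfb3 and Errfi1 in the 4 AngII groups (3 libraries each); bars are the geometric mean and whiskers 1 SD of the log2 values. Rcan1 sits between 7.54 and 16.8 CPM in KO and between 24.03 and 50.2 CPM in WT, while for Hspa1b and Hsph1 1 library of the other genotype reaches into the range.

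Heat shock genes were lower in KO as a group. These encode chaperones that fold and refold proteins, and heat shock factor (Hsf1) drives many of them by binding heat shock elements. Of 17 tested members of the list 16 were lower, 3 were called lower and 10 were lower at an unadjusted p under 0.05. Over all genes, 0.0804% were called lower and 3.06% were lower at an unadjusted p under 0.05. The median was -0.46, against 0.01 over all genes. In control mice the list median was -0.23, with 1 of 17 higher, against -0.02 over all genes. Summed over the list, levels in AngII-treated mice were 1400 to 2294 CPM in WT (median 1742) and 993 to 1749 CPM in KO (median 1300).

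Hspa1b, a stress-inducible Hsp70 (chromosome 17, 34956436 to 34959238), stood at 120, 80.0 and 151 CPM in WT females and 19.4, 30.7 and 12.8 in KO females. In males it stood at 137, 85.8 and 27.2 CPM in WT and 21.4, 29.7 and 13.6 in KO. Only WT male replicate 3 reached into the KO range. The fall was 2.21 on the log2 scale, with an SE of 0.32 (edgeR, adjusted p = 0.0034). Its neighbour Hspa1a, whose transcript is 99.1% identical over 2200 aligned bases, stood at 71.6 ± 29.5 CPM in WT and 19.1 ± 8.33 in KO (SD, n = 6). It fell by 1.89 with an SE of 0.31 (edgeR, adjusted p = 0.00787). Reads from this pair could be assigned to either gene, so the split between them is uncertain. The pseudogene Gm8355, 74% identical to the Hspa1b transcript and singled out here after its value was seen, was also called lower (-0.74, adjusted p = 0.0441).

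Hsph1, an Hsp110 that helps Hsp70 release its clients, fell by 1.22 with an SE of 0.22 (edgeR, adjusted p = 0.0142). It was at 85.7 to 110 CPM in all WT libraries and at 23.5 to 36.6 CPM in 5 of the 6 KO libraries, while KO female replicate 2 held 87.7 CPM. Hspb1, a small heat shock protein of muscle, stood at -1.03 ± 0.25, and Dnajb4, an Hsp40, at -0.87 ± 0.21 (edgeR, adjusted p = 0.0795 and 0.0799). The 3 called genes were called in each of the 12 fits that left out 1 library. Once the receptor share entered the model none of the 3 was called, and 11 of the 17 were lower (median -0.24).

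The promoter windows of Hspa1b (chr17:34959239-34959488, minus strand) and Hspa1a (chr17:34972157-34972406, minus strand) show how alike the pair is. Each has 1 match to a heat shock element, GAANNTTC, in capitals. Hsph1 (chr5:149636337-149636586, minus strand) has 1 match to the reverse arrangement, TTCNNGAA.
Hspa1b: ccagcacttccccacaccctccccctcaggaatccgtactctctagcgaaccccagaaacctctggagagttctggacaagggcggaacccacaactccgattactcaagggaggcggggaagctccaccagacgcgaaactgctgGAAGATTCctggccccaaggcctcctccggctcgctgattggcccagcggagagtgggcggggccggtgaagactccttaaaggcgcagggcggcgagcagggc
Hspa1a: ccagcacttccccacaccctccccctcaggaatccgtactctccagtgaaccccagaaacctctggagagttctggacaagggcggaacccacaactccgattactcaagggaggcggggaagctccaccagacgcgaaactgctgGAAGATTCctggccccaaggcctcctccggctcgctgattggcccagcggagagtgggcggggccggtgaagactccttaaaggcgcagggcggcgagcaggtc
Hsph1: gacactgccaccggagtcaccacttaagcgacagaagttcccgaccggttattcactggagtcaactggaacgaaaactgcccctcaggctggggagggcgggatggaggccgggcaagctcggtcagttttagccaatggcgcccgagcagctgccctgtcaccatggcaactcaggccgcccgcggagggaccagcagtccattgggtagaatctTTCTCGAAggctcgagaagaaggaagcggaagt
Either arrangement is found in 12.8% of the 32807 windows (both strands searched). The window of Hspb1, also searched, holds 2 matches. Dnajb4 has 1 match before its second start and none before its first. The windows of Bag3 and Dnajb1, searched as well, hold none.

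The clock output factors Hlf and Tef and the period gene Per3 rose in KO. In the clock, Bmal1 (Arntl) pairs with Clock or Npas2 and drives its own repressors (Per, Cry, Nr1d) and the output factors Dbp, Tef and Hlf. Of 21 tested clock genes 14 were higher and 7 lower in KO, while 51.1% of all genes were higher. Hlf, Tef and Per3 were called higher, as were 0.417% of all genes. At an unadjusted p under 0.05, 7 clock genes were higher and 3 lower (4.85% and 3.06% of all genes). The median was 0.33, at 0.59 in females and 0.14 in males. Calls in this list varied with the method. DESeq2 called 6 clock genes higher and 1 lower, and limma-voom 5 and 1. With the receptor share in the model 2 were called higher and 1 lower, and without the sex covariate 1 and 0.

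Hlf (chromosome 11, 90336536 to 90390895) stood at 14.4, 27.6 and 23.3 CPM in WT females and 40, 42.2 and 122 in KO females. In males it was at 27.3, 42.1 and 20.2 CPM in WT and 53.1, 77.5 and 94.5 in KO. WT male replicate 2 lay within the lower end of the KO range, and the other WT libraries lay below it. The rise was 1.49 ± 0.28 (edgeR, adjusted p = 0.0165). Hlf was called with the receptor share in the model, at 2.71 (edgeR, adjusted p = 0.0028), but not with adipocyte and skeletal muscle covariates (1.48, adjusted p = 0.135), nor without WT male replicate 1 or 3 (adjusted p = 0.052 and 0.0523). Tef, a relative of Hlf that binds the same D-box element, rose by 0.85 ± 0.17 (edgeR, adjusted p = 0.0215), from 94.8 ± 41.6 to 162 ± 45.2 CPM (SD, n = 6). Per3, a period protein, rose by 0.91 ± 0.20 (edgeR, adjusted p = 0.0359). It was at 28.8 to 44.6 CPM in WT females, 66.4 to 107 in KO females, 49.8 to 87.2 in WT males and 94.2 to 116 in KO males. Within each sex the Tef and Per3 libraries of the genotypes did not overlap, although the values of WT males and KO females did. Tef was called in 6 and Per3 in 3 of the 12 fits that left out 1 library, and neither without the sex covariate or with the receptor share in the model.

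The positive arm was lower in KO without passing the test. Arntl stood at 38.7, 25.7 and 26.1 CPM in WT females and 5.94, 5.77 and 5.86 in KO females. In males it was at 12.2, 5.6 and 12.1 CPM in WT and 8.56, 1.61 and 0.216 in KO, so that WT males reached into the KO range and lay below WT females. The difference was -2.05 ± 0.46 (edgeR, adjusted p = 0.0505). Npas2 stood at -0.97 ± 0.34 and Clock at -0.44 ± 0.14. Of the other outputs and repressors Dbp was at 1.22 ± 0.31, Bhlhe41 at 1.12 ± 0.28 and Per2 at 0.62 ± 0.18 (edgeR, adjusted p = 0.0967, 0.0916 and 0.183). Bhlhe41 was called with the receptor share in the model (2.33; edgeR, adjusted p = 0.0145). Nr1d1 stood at 0.39 and Per1 at 0.15. These transcripts cycle over the day, the time of collection is not given in the sources used here, and its part in these differences was not tested.

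**Figure D2:**
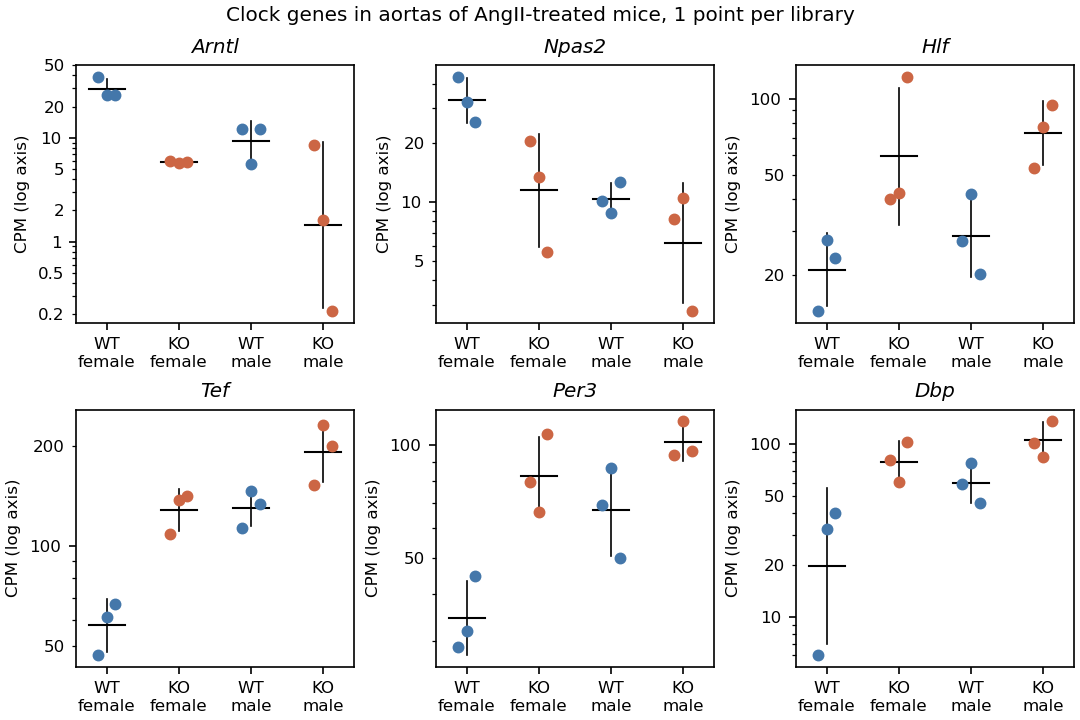
CPM per library on a log axis for 6 clock genes in the 4 AngII groups (3 libraries each); bars are the geometric mean and whiskers 1 SD of the log2 values. Arntl and Npas2 are lower, and Hlf, Tef, Per3 and Dbp higher, in KO than in WT group means of the same sex, and WT males differ from WT females in the same direction as KO from WT.

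The windows before both RefSeq starts of Tef each hold 1 E-box, CACGTG, the element that Bmal1 and Clock bind. That before Per3 (chr4:151044666-151044915, minus strand) holds 2 D-boxes, TTATGTAA, the element that Dbp, Tef and Hlf bind. The second Tef window (chr15:81811164-81811413, plus strand) and the Per3 window are shown with the matches in capitals, as windows of called genes that hold a match. The windows of Hlf, which was also called, and of Dbp and Nr1d2 hold neither motif.
Tef: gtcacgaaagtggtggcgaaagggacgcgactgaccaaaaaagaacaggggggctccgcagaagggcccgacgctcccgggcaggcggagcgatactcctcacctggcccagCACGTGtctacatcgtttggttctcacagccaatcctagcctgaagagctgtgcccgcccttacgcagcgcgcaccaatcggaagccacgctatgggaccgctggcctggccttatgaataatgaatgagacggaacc
Per3: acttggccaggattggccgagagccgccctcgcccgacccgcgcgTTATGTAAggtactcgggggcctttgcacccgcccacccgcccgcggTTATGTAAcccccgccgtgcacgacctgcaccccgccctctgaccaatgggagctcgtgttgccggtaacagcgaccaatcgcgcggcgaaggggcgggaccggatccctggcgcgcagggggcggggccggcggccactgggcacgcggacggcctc
An E-box of these letters is found in 6.02% and a D-box in 0.817% of the 32807 windows.

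Matrix genes were lower in KO in most cases, but none of the collagens or matrix glycoproteins was called. Of 35 tested members 29 were lower (median -0.33), and 7 were lower at an unadjusted p under 0.05 (3.06% of all genes). Without WT female replicate 3 the median was -0.15, with the receptor share in the model it was -0.59, and in control mice it was 0.09, with 21 of 35 higher. Periostin (Postn), a matrix protein of wound and fibrous tissue, was at 1666 ± 752 CPM in WT and 1063 ± 302 in KO (-0.65 ± 0.23). Col15a1, Sparc and Col1a1 stood at -0.63 ± 0.25, -0.57 ± 0.22 and -0.51 ± 0.22. Basement membrane genes were lower in 13 of 14 cases (median -0.16, and -0.20 in control mice with 2 of 14 higher). They were led under AngII by the type IV collagens Col4a2 (-0.55 ± 0.22) and Col4a1 (-0.47 ± 0.19). Genes of collagen processing were lower in 13 of 16 cases (median -0.29, and -0.10 in control mice with 5 of 16 higher). Lox, the enzyme that crosslinks collagen and elastin, was at 120 to 535 CPM in WT and 56.1 to 185 CPM in KO (-1.11 ± 0.28; edgeR, adjusted p = 0.097). Fibroblast markers were at a median of -0.03 over 13 genes, and their summed level was 1899 to 2899 CPM in WT and 1171 to 3356 in KO. In bulk tissue, fewer cells of a type and less RNA per cell cannot be told apart.

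In the TGF-beta pathway the ligand Tgfb3 was the called member. It stood at 112, 145 and 131 CPM in WT females, 72.3, 86.6 and 92.4 in KO females, 181, 160 and 223 in WT males and 99.5, 104 and 100 in KO males. No KO library reached a WT library. The fall was 0.76 on the log2 scale, with an SE of 0.15 (edgeR, adjusted p = 0.0194). Tgfb2, a second ligand, stood at -0.60 ± 0.21. Of the response genes, connective tissue growth factor (Ccn2) was at 1488 ± 453 CPM in WT and 691 ± 290 in KO (-1.11 ± 0.26; edgeR, adjusted p = 0.0674). Ccn1 stood at -0.91 ± 0.28 and Id1 at -1.14 ± 0.42. The receptor Tgfbr3 stood at 0.28 ± 0.14. Of 27 tested members 16 were lower and 11 higher (median -0.21).

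Further named genes fell. Errfi1, a feedback inhibitor of the EGF receptor, was at 97.1, 55.5 and 56.2 CPM in WT females and 10.8, 31.4 and 18.1 in KO females, and at 60.5, 60.2 and 78.9 in WT males against 34.6, 34.5 and 42.3 in KO males. Its fall was 1.31, with an SE of 0.25 (edgeR, adjusted p = 0.0194), and the libraries did not overlap. Foxs1, a forkhead factor of perivascular cells (-1.50 ± 0.33), C1qtnf6, a secreted C1q and TNF related protein (-1.45 ± 0.31), Fhl3, a LIM-domain protein of muscle (-1.26 ± 0.28), and the annexin Anxa3 (-0.84 ± 0.18) were called lower (edgeR, adjusted p = 0.0441, 0.0329, 0.0446 and 0.0441). Each of these 4 was called in only 2 of the 12 fits that left out 1 library, against 11 for Errfi1 and 7 for Tgfb3.

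Immediate early genes, which respond within minutes to stimulation, were lower in 19 of 26 cases with none called. Their median was -0.36 under AngII, -0.28 in control mice (6 of 26 higher) and, under AngII with the receptor share in the model, -0.87. The orphan receptor Nr4a3 was at 24.3 ± 13.9 CPM in WT and 8.003 ± 2.39 in KO (-1.58 ± 0.39; edgeR, adjusted p = 0.0878). Atf3 stood at -2.13 ± 0.73, Myc at -1.17 ± 0.42 and Fosl2 at -0.71 ± 0.22. Cholesterol synthesis genes were lower in 14 of 17 cases (median -0.43), with their regulator Srebf2 at -0.43 ± 0.16 and the synthase Hmgcs1 at -0.65 ± 0.26. Contractile smooth muscle genes were split 11 against 11 (median -0.02). Among them the coactivator Myocd stood at -0.52 ± 0.15 and its partner Srf at -0.39 ± 0.15, both uncalled, while Myh11 stood at -0.06. In the renin-angiotensin-aldosterone list 7 of 14 were higher and 7 lower, with Rgs4, which damps G-protein signalling, at -0.71 ± 0.19. Lists of fatty acid metabolism, vascular tone, the unfolded protein response, oxidases, matrix proteases, cell cycle, oxidative phosphorylation, calcification, ribosomal proteins and Notch held no called gene and had medians between -0.14 and 0.08.

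**Figure D3:**
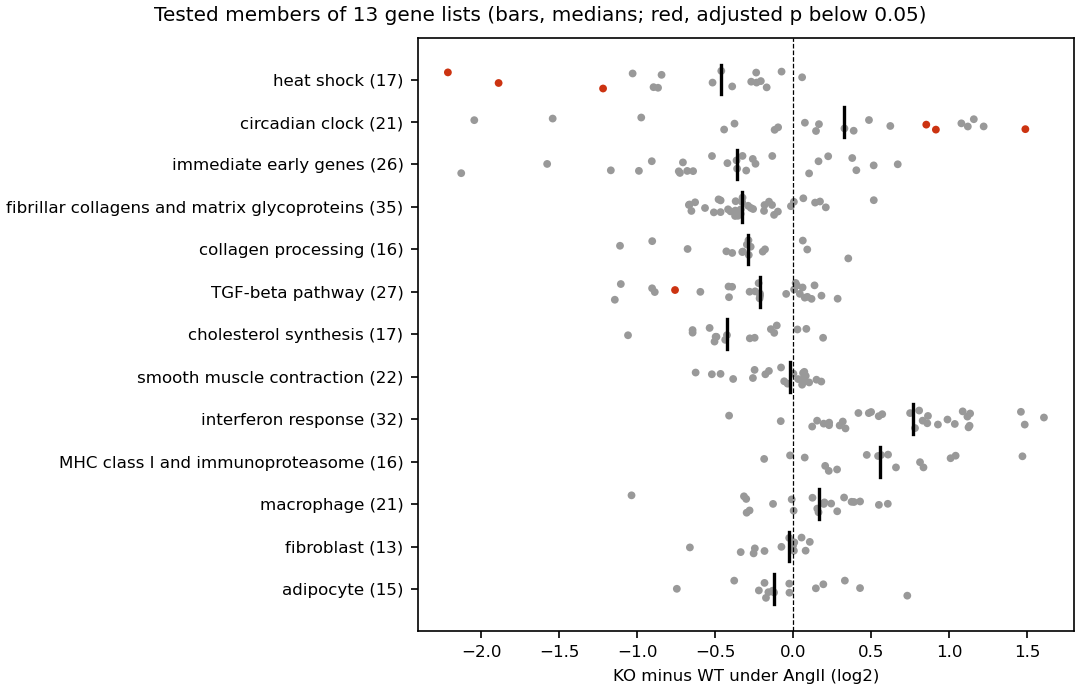
KO minus WT under AngII (log2) for every tested member of 13 gene lists, 1 point per gene, with the list median as a bar and called genes in red; the number of tested members is in parentheses. Heat shock (median -0.46) and matrix genes (-0.33) lie mostly below 0, interferon genes (0.76) mostly above it, and called genes are found in the heat shock, clock and TGF-beta lists.

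Interferon and antigen presentation genes were higher in KO without any gene passing the test. Of 32 tested interferon-response genes 30 were higher (median 0.76), and 11 had an unadjusted p under 0.05 (4.85% of all genes were higher at this level). The transcription factor Irf1 stood at 15.1 ± 4.9 CPM in WT and 26.9 ± 5.9 in KO (0.86 ± 0.25), and the GTPases Iigp1 and Gbp4 at 1.12 ± 0.36 and 1.13 ± 0.39 (edgeR, adjusted p = 0.189, 0.278 and 0.341). MHC class I genes and the immunoproteasome were higher in 14 of 16 cases (median 0.55) and class II genes in 9 of 9 (median 0.85). The class II list was at a median of 1.84 in males and -0.31 in females. Cd74, the class II invariant chain, was at 258 and 351 CPM in KO male replicates 1 and 2, and at 42.7 to 103 CPM in the other 10 libraries. With the receptor share as a covariate the medians of the interferon, class I and class II lists were -0.34, -0.28 and -0.82. In control mice, without that covariate, the KO minus WT medians of the same lists were 1.15, 0.85 and 2.61, so the rise was not particular to AngII-treated mice.

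Immune cell markers also varied between libraries. The 24 macrophage markers summed to 197 to 390 CPM in WT (median 269) and 198 to 468 CPM in KO (median 238), and all had a count. Of 21 tested 14 were higher (median 0.16), and in control mice all 21 were higher (median 1.63). Lymphocyte and plasma cell markers summed to 16.8 to 41.2 CPM in WT and 9.7 to 385 CPM in KO. The immunoglobulin chain Ighm was at 216 CPM in KO male replicate 1 and at 1.44 to 51.9 CPM in the other 11 libraries. Of that list Cd3d, Cd3e and Cd3g had 0 counts, and they lie on chromosome 9, for which the table holds no counts. The part of these cells in the interferon and class II values was not tested.

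Outside the chromosome 14 family, 7 named genes rose. Beside Hlf, Tef and Per3 these were Adgrv1, Epha5, Tcap and Rapgef5. Tcap, the titin cap protein of striated muscle, was at 5.77, 26.7 and 16.1 CPM in WT females, 48.8, 71.8 and 98.5 in KO females, 37.9, 55.7 and 34.7 in WT males and 73.8, 88.9 and 158 in KO males. It rose by 1.73 ± 0.30 (edgeR, adjusted p = 0.0112). The other 14 skeletal muscle markers summed to 24.5 to 34.1 CPM in WT and 18.1 to 49.9 CPM in KO (medians 27.1 and 25.8). Of the whole list 6 genes were tested, 5 of them higher, with a median of 1.00. Acta1 and Tnnc2 had 0 counts, and Acta1 lies in the stretch of chromosome 8 for which the table holds no counts. Tcap was called with the receptor share in the model (2.92, edgeR, adjusted p = 0.00475). It was not called with adipocyte and skeletal muscle covariates (1.46, edgeR, adjusted p = 0.095). The skeletal muscle covariate is the mean of the 6 tested markers and includes Tcap, so that fit partly adjusts Tcap for itself and cannot settle its call. Rapgef5, an exchange factor for Rap GTPases, rose by 0.95 ± 0.19 (edgeR, adjusted p = 0.0215) from 21.95 ± 4.96 to 42.4 ± 4.4 CPM (SD, n = 6), and its libraries did not overlap. Among higher genes that are not called and have a gene name other than a systematic one, the smallest p-values belonged to Plekha6 (0.90 ± 0.22) and Galnt15 (0.67 ± 0.16), a glycosyltransferase on chromosome 14 whose libraries did not overlap (edgeR, adjusted p = 0.0753 and 0.0789).

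Adgrv1, a very large adhesion receptor of sensory cells, and Epha5, an ephrin receptor of neurons, were near the floor of detection in WT. Adgrv1 was at 0 to 2.38 CPM in WT and 3.02 to 18.8 CPM in KO, and rose by 2.90 ± 0.56 (edgeR, adjusted p = 0.0194). Epha5 was at 0.269 to 3.10 CPM in WT and 1.73 to 45.1 CPM in KO, and rose by 2.76 ± 0.49 (edgeR, adjusted p = 0.0119). In both genes KO females were the highest group, as they were for the receptor share. Once that share entered the model, neither gene passed the test.

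The chromosome 14 family made up 34 of the 57 genes that rose. Its members resemble 2610042L04Rik, which RefSeq also lists as takusan, a rodent family of many near-identical copies. By BLAST against that transcript (at least 85% identity over at least 200 bases) 106 genes of the table belong to it. Of these, 103 lie in the first 8 Mb of chromosome 14 and 3 between 19 and 20 Mb, within 1 Mb of Ppp3cb. Summed over all 106 genes, levels were 145, 114 and 199 CPM in WT females and 1213, 847 and 560 CPM in KO females. In males they were 80.3, 52.8 and 106 CPM in WT and 501, 681 and 420 CPM in KO. Every KO library lay above every WT library, and all 106 genes had a higher mean in KO. With the receptor share in the model none of the 86 tested copies was called, 72 were higher and 14 lower, and their median was 1.78 against 2.82 without it. Single copies were low: 86 passed the filter, but only 4 would have passed on the WT libraries alone, so most were tested because KO is high. Of these 4 genes, all were higher in KO and 3 were called.

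**Figure D4:**
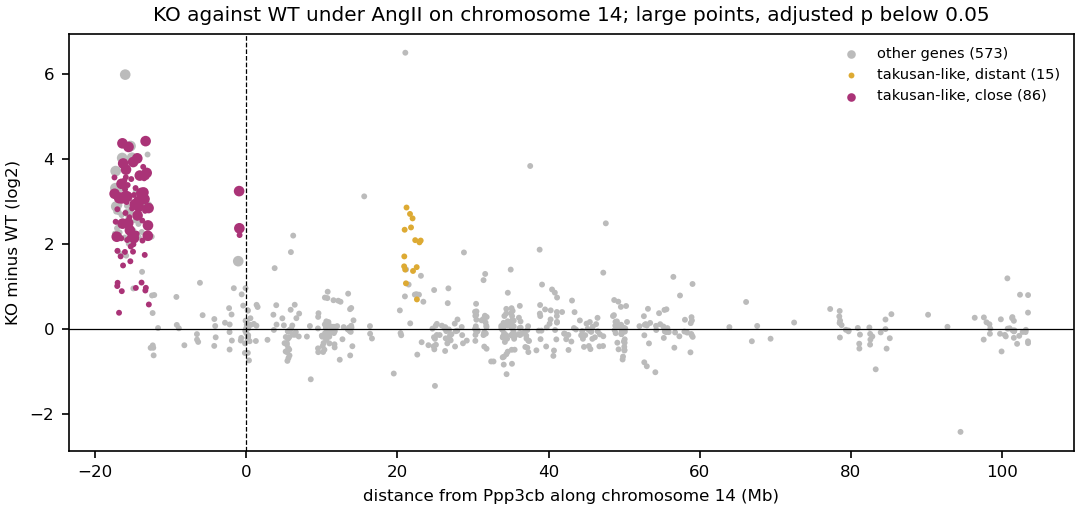
KO minus WT under AngII (log2) for tested genes of chromosome 14 against their distance from Ppp3cb (dashed line), with close and distant copies of the takusan-like family coloured and called genes drawn large. The close copies lie at the start of the chromosome and within 1 Mb of Ppp3cb, all above 0, and no uncoloured gene beyond 20 Mb is called.

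Called genes within 10 Mb of Ppp3cb were the family members Gm2237 and Gm2244 and the satellite-like Gm21738. Gm2237 (chromosome 14, 19563800 to 19585135) was at 1.63 to 3.46 CPM in WT and 6.98 to 24.3 CPM in KO, and rose by 2.36 ± 0.41 (edgeR, adjusted p = 0.0112). Gm2244 rose by 3.24 ± 0.69 and Gm21738 by 1.59 ± 0.29 (edgeR, adjusted p = 0.0359 and 0.0141). Among chromosome 14 genes outside these families, none of 98 tested within 10 Mb of Ppp3cb was called and 6.12% had an unadjusted p under 0.05. At 10 to 20 Mb, where the family sits, 10 of 112 were called (43.8% under 0.05), and beyond 20 Mb none of 362 (6.08%). Distant relatives of the family (outside that limit of likeness), which lie 20.9 to 23.1 Mb beyond Ppp3cb, had a median of 2.03 over the 15 of 71 that passed the filter, with none called. Here too the filter favours copies that are high in KO, and in control mice 9 of these 15 were higher, with a median of 0.27. The stock is of mixed B6 and 129S6 origin. The sources used here do not give the strain of this stretch in the KO and WT mice, and its part in these counts was not tested. Reads that match many copies can be counted at any of them, so values of single copies are uncertain. Without this family and the satellite-like genes, 31 of 13574 genes (0.228%) remained called, 20 higher (0.147%) and 11 lower (0.081%), and 10 of the 20 lie among the copies at 10 to 20 Mb from Ppp3cb.

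The difference between genotypes was next compared between the sexes. All 68 called genes had the same sign in females and in males. They were called on these same libraries with both sexes together, so the shared sign was largely set by the call. For genotype by sex edgeR called 0 of 13678 genes (0%), 321 had an unadjusted p under 0.05 (2.35%), and DESeq2 and limma-voom also called 0. The smallest p-values belonged to Oasl2, an interferon-induced gene (-0.58 ± 0.45 in females and 2.14 ± 0.47 in males), Ercc1, a DNA repair factor, the engulfment receptor Megf10, the growth factor Bmp4 (-0.75 ± 0.31 and 0.88 ± 0.31) and the non-coding Airn (0.80 ± 0.31 and -0.84 ± 0.31). Each had an adjusted p of 1.00 (edgeR, 3 libraries per group).

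The same genotype difference in control mice shares no library with the AngII comparison. Of the 68 genes called under AngII, 66 had the same sign in control mice, and 42 of these also had an unadjusted p under 0.05 there. The exceptions were Anxa3 (0.01 ± 0.26) and 1 snRNA gene with 0 counts in all control libraries. Among the 31 genes outside the repeated families, 10 of which lie among the copies on chromosome 14, 29 had the same sign and 13 of them an unadjusted p under 0.05, against 5.51% of all genes in either direction. In control mice edgeR called 0 of 13678 genes (0%). An unadjusted p under 0.05 was found there for 754 genes, 3.41% of all genes being higher and 2.1% lower at that level. The count of called genes was 102 with DESeq2 and 37 with limma-voom. Across all genes the differences under AngII and in control mice had r = 0.411 and rho = 0.258, with the same sign for 58.3%; genes are not independent replicates, and this is a description.

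Ppp3cb stood at -1.04 ± 0.23 in control mice and Rcan1 at -1.02 ± 0.51, with 10.5 to 27.5 CPM in WT and 0 to 12.8 CPM in KO controls. Tcap stood at 1.31 ± 0.31, Hlf at 0.72 ± 0.28, Errfi1 at -1.09 ± 0.47 and Hsph1 at -0.70 ± 0.27. Of the Hsp70 pair, Hspa1b stood at -0.33 ± 0.46 and Hspa1a at -0.31 ± 0.47. The whole heat shock list had a control median of -0.23, with 1 of 17 higher. The family of chromosome 14 summed to 1409 to 3239 CPM in KO and 77.9 to 285.9 CPM in WT control females. In control males it summed to 292.6 to 357.1 CPM in KO and 109.9 to 310.7 CPM in WT, so the genotypes overlapped there. Whether the genotype difference itself changed with AngII was tested over all 24 libraries. EdgeR called 0 of 13678 genes (0%), 501 had an unadjusted p under 0.05 (3.66%), and DESeq2 and limma-voom called 0. Hspa1b stood at -1.91 ± 0.56 (unadjusted p = 0.0021), Hspa1a at -1.60 ± 0.59, Anxa3 at -0.85 ± 0.32 and Rcan1 at -0.76 ± 0.51, all with an adjusted p of 0.999 (edgeR). KO control females enter both this contrast and the control comparison. They had receptor shares of 1255 to 2467 CPM, above the 264.9 to 729.5 CPM of the other control libraries. Their totals of 1523328 to 2401264 counts lay below the 2510551 to 4887383 counts of the other control libraries.

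**Figure D5:**
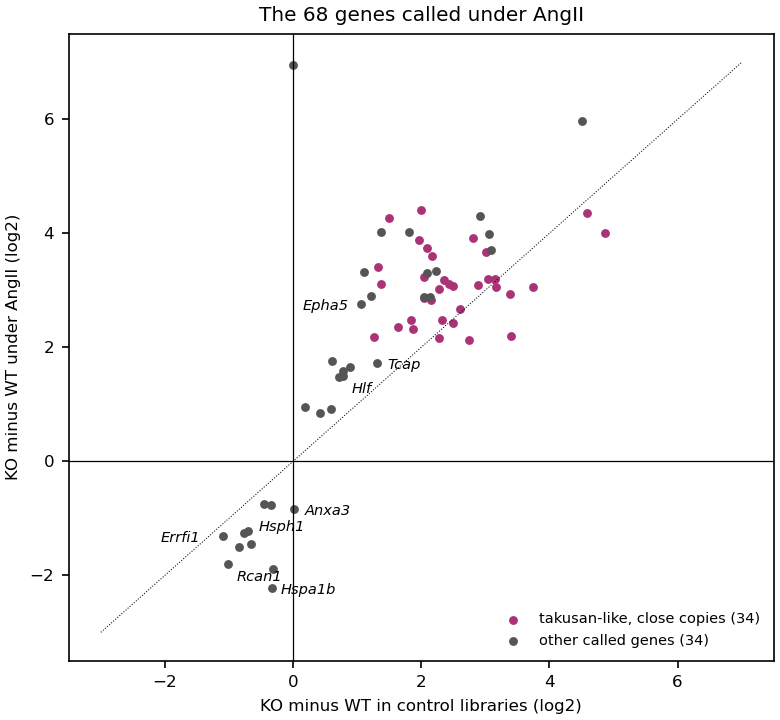
KO minus WT (log2) of the 68 genes called under AngII (vertical axis) against the same difference in the separate control libraries (horizontal axis), with the line of equal values dotted. All but Anxa3 and a gene without control counts share their sign, and Hspa1b lies close to 0 in controls (-0.33) and at -2.21 under AngII.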

How the data were processed

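The deposited table holds whole-number counts of reads per gene for 24 aorta libraries. Per the submitters' processing notes, the authors' tools include featureCounts 1.4.6, TopHat2 2.0.14 with Bowtie2 2.2.5, and cutadapt 1.8.1, with the build mm10; counting options, including strand, are not given in the sources used here. The genes of chromosomes 9, MT, X and Y (6021) and 526 genes of chromosome 8 have no counts in any library and were not analysed here. Gene IDs were matched to GENCODE M21 (40254 of 41128).

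Counts of the 12 AngII libraries were filtered (filterByExpr, minimum count 10, minimum total 15), scaled by TMM and fitted with edgeR 4.0.16 (R 4.3.3; quasi-likelihood test, genotype plus sex, Benjamini-Hochberg threshold 0.05). Genotype by sex, KO against WT in control mice, and the change of the KO minus WT difference between control and AngII were fitted likewise. DESeq2 1.42.0 and limma 3.58.1 served as alternatives. CPM use TMM-scaled library sizes, and the prior count for log2 values was 2. Ppp3cb was tested by exact permutation within sex. Families were found with BLAST+ 2.17.0, and promoter windows came from RefSeq (GRCm38.p6; 17 of 17 genes matched). On simulated counts for 13678 genes, the AngII test called 31 of 100 genes changed 2-fold and 74 of 100 changed 4-fold, with 4 false calls.

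Named genes were, per direction, up to 15 called genes with the largest change (mean log2 CPM at least 1, same sign in both sexes, systematic names and pseudogenes counted only), filled up to 10 by smallest p; up to 4 members per list by smallest p; calcineurin subunits, Rcan1, Rcan2 and NFAT factors; called genes within 10 Mb of Ppp3cb; and the 5 smallest p for genotype by sex. Other genes (Gm8355, Myh11, Clock, Dbp, Npas2, Nr1d1, Per1, Per2, Dnajb4, Id1, Tgfbr3) were singled out after their values were seen. The members and lists were chosen with earlier results of these data known.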

Additional observations from a re-analysis of the deposited data

Results flagged for a closer look

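In 5 of 56 sets of 6 libraries tested, 1 library stood far from the other 5 relative to the range of the set; chance gives about 1 in 20. Hspa1b was at 27.2 CPM in WT male replicate 3 and at 80.0 to 151 CPM in the other WT libraries. Hspa1a was at 22.35 CPM in the same library and at 61.67 to 110.6 CPM in the others; its transcript is nearly identical to that of Hspa1b. Hsph1 was at 87.68 CPM in KO female replicate 2 and at 23.54 to 36.56 CPM in the other KO libraries. Bhlhe41, a repressor of the clock, was at 8.169 CPM in WT female replicate 1 and at 25.71 to 49.58 CPM in the other WT libraries. Foxs1 was at 8.169 CPM in the same library and at 15.08 to 21.64 CPM in the others.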

How the results depend on the processing

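The count of 68 genes called under AngII was 190 with DESeq2 (151 higher, 39 lower), 246 with no count filter, 98 with limma-voom (67 higher, 31 lower), 22 with at least 50 counts in 3 libraries, 38 with no sex covariate, 10 with adipocyte and skeletal muscle covariates, 6 with the receptor share, 0 in females only (580 at an unadjusted p under 0.05) and 2 in males only. Leaving out 1 library gave 31 to 89: 31 without WT female replicate 2 or WT male replicate 1, 34 without WT male replicate 3, 42 without WT male replicate 2 and 43 without KO female replicate 2. Ppp3cb stood at -0.98 in females only and -0.82 in males only (exact permutation p = 0.1, the smallest 3 against 3 allow). Genotype by sex gave 11 calls with no count filter. In control mice DESeq2 called 102 and limma-voom 37, and leaving out 1 library gave 0 to 44: 44 without WT male replicate 2, 21 without KO male replicate 3, 10 without WT male replicate 3, 6 without KO male replicate 2, and 1 without WT female replicate 1 or KO female replicate 2. The test of whether the KO minus WT difference changed with AngII gave 0 to 2 calls (2 without KO control female replicate 2). The cause of these shifts was not tested, except that fewer genes or libraries enter some fits. No named value that was called changed its sign.

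Libraries of the same replicate number correlated only weakly (r of 0.000537 to 0.0798 over 6 pairs, none over 0.1), although 5 of 6 correlated best with their own number. Whether the numbers pair the libraries is not settled by these values. With the replicate block 49 genes were called, 42 of them among the 68, and the exact p for Ppp3cb was 0.0312. In simulation at these totals and group sizes 31 of 100 genes changed 2-fold were called; how depth alone limits calls was not tested.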
